A study of Mus musculus with 8 samples.

Results

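The PYHIN cluster is a run of related genes on mouse chromosome 1, also called the Ifi200 cluster. Members were taken by name from the authors' table of normalized counts: Ifi203, Ifi204, Ifi206, Ifi208, Ifi209, Ifi213, Ifi214, Mndal and Aim2. These are 9 of the 16418 genes in that table, and 8 of the 9 also passed a filter on low counts that left 11772 genes for testing. The family was selected on its difference between the groups described next, so that difference is given for the members as a description, without p-values. The study asked what loss of Satb1, a chromatin organiser abundant in T cells, does to naive CD4+ T cells. All 8 samples were naive T cells (CD3+CD4+CD25-CD44low/-CD62L+) from spleen and lymph node of mice with the genotype Satb1fl/fl x CD4-CreERT2wt/+, so floxed Satb1 and the Cre transgene were present in both groups. The 4 KO samples came from tamoxifen treatment, which activates this Cre, and the 4 WT samples were untreated. Treatment and deletion therefore coincide and cannot be told apart. Nothing in the labels ties a sample to its own animal, and every p-value reflects the scatter among these 8 samples, part of which may be technical.

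PYHIN proteins usually combine a pyrin domain, which binds other pyrin domains, with a HIN domain, which binds DNA. AIM2 detects double-stranded DNA in the cytosol and recruits the adaptor ASC and caspase-1 into an inflammasome, and several other mouse members act in the nucleus on transcription and cell growth. Many genes of the family are induced by interferons, whose signal reaches promoters through the transcription factor complex ISGF3.

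Library totals ranged from 5227758 to 21998174 reads, with 7544075 to 9253620 in KO. Satb1 itself was read at 855, 1032, 840 and 913 CPM (a gene's reads per 1000000 reads of the library, its total scaled by trimmed mean of M-values, TMM) in KO and at 987, 1015, 1046 and 1084 in WT. The groups overlapped, because Sample_2908_KO reached the WT range, and the drop of 0.18 on the log2 scale (SE 0.059) missed the threshold (edgeR quasi-likelihood test, Benjamini-Hochberg adjusted p = 0.0582). Which exons the floxed allele loses is not given in the sources used here, and a gene count includes reads outside them, so KO and WT are used as the labels' names. The 8 naive CD4+ T cell markers summed to 6803 to 7557 CPM in KO and 6855 to 7304 in WT. Those of 11 myeloid and dendritic genes summed to 14.7 to 22.9 CPM in KO and 9.23 to 38.8 in WT, with Sample_2911_WT at the top. Lyz2 alone gave 25.3 CPM of the 38.8 in that library. The 4 regulatory T cell markers summed to 89.6 to 164 CPM in KO and 40.4 to 51.8 in WT. Foxp3 carried this gap (93.4 ± 27.1 against 8.41 ± 1.198 CPM, called), while Ctla4, Ikzf2 and Ikzf4 overlapped between the groups and were not called. The part of regulatory T cells in the values below was not tested. In bulk RNA, fewer cells of a type and less RNA per cell cannot be told apart.

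The promoters of most members hold an interferon response motif, and they fall into near-identical sets. The core of the interferon-stimulated response element, GAAANNGAAA, was searched on both strands in the 250 bases before each RefSeq start (build GRCm38.p6). It was found for 6 of the 8 members with a promoter entry, against 3.46% of 27025 genes. Ifi204 had no entry. All 6 carry the same 10 letters, which 13 of the 27025 genes hold (0.0481%), among them Ifi207, a family gene outside the members. This exact form was picked after the sequences were seen. The windows below, 30 bases each and read 5′ to 3′ on the gene's strand, show how the flanks group the members; capitals mark the 10 letters.
Ifi206: tgtctctgagGAAATCGAAAgctatgaacc
Ifi213: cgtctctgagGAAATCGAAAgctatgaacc
Ifi208: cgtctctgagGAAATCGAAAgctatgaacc
Ifi214: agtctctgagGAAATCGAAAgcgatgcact
Ifi209: aatctctgagTAAATCGAAAgagatgcact
Mndal: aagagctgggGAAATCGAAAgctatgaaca
Ifi203: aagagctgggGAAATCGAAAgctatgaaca
Ifi206, Ifi213 and Ifi208 share one context, Ifi214 and Ifi209 another, and Mndal and Ifi203 the third. The windows lie at chr1:173491339-173491368 (minus strand), chr1:173599326-173599355 (minus), chr1:173673597-173673626 (plus), chr1:173536017-173536046 (minus), chr1:173630770-173630799 (plus), chr1:173880204-173880233 (minus) and chr1:173942508-173942537 (minus), in the order printed. The 10 letters begin 35 bases before the start in Ifi203 and up to 79 bases before it in Ifi214 and Ifi209. Ifi203 has 2 annotated starts, and only the window of the second one holds the match. Mndal also has 2, and the 10 letters lie before the first, while the second has another form of the core. Of the 250 bases, 118 before the first Mndal start and 211 before the second are annotated Mndal exon.

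Ifi209 departs from the core by G1T, counted from 1 at the first capital, so it has no exact match. A search on the gene's strand for the core with 1 of its 8 fixed bases changed and the same middle bases found this one place in Ifi209 and none in Aim2. Over the aligned upstream bases Aim2 was 55.2 to 69.3% identical to the other members, each of which has a partner at 95.2% or more. The Ifi206 and Ifi208 upstream regions were 99.6% identical over 232 aligned bases. Those of the first Mndal start and the second Ifi203 start were 97.5% identical over 239, and those of Ifi214 and Ifi209 95.2% over 249. The full regions of Ifi208 (chr1:173673415-173673664, plus strand) and Ifi209 (chr1:173630609-173630858, plus strand) are shown because one holds the unchanged core and the other the core with G1T.
Ifi208: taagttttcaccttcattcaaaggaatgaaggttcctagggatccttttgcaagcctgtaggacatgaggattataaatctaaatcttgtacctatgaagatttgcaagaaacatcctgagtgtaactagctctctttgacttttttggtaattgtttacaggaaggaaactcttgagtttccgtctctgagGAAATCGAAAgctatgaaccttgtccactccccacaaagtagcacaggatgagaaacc
Ifi209: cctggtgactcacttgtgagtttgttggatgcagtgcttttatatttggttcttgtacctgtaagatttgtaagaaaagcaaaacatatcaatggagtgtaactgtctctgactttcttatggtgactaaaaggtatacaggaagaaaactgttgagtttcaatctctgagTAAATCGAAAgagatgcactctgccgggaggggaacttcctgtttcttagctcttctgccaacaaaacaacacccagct
Members hold 0 to 4 CpG pairs per 250 bases, where the median gene holds 6. A second interferon motif, TTCNNNGAA (the gamma-activated site, the same on both strands), was in 0 of the 8 members' windows and in 8.13% of genes. A match is a string of letters and no measured binding.

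In the KO libraries 7 of the 8 tested members had a higher mean than in WT, and Aim2 did not. The summed level of all 9 members, Aim2 and the untested Ifi204 included, was 2745, 3189, 2597 and 2716 CPM in KO. In WT it was 2098, 1914, 1801 and 1863 CPM. All KO sums lay above all WT sums, and the ratio of the means was 1.47 (2812 ± 259 against 1919 ± 128, SD, n = 4 each). The median log2 fold change of the 8 was 0.47, beside 0.00 over all tested genes. By edgeR at an adjusted p under 0.05, 6 of the 8 were past the threshold upward and 0 downward, where 6.39% of all tested genes were called (3.98% higher, 2.41% lower). All 4 KO libraries lay above all 4 WT libraries for the same number, 6, and for 6.23% of all genes. Because the members were chosen for this contrast, nothing is read from these counts.

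**Figure D1:**
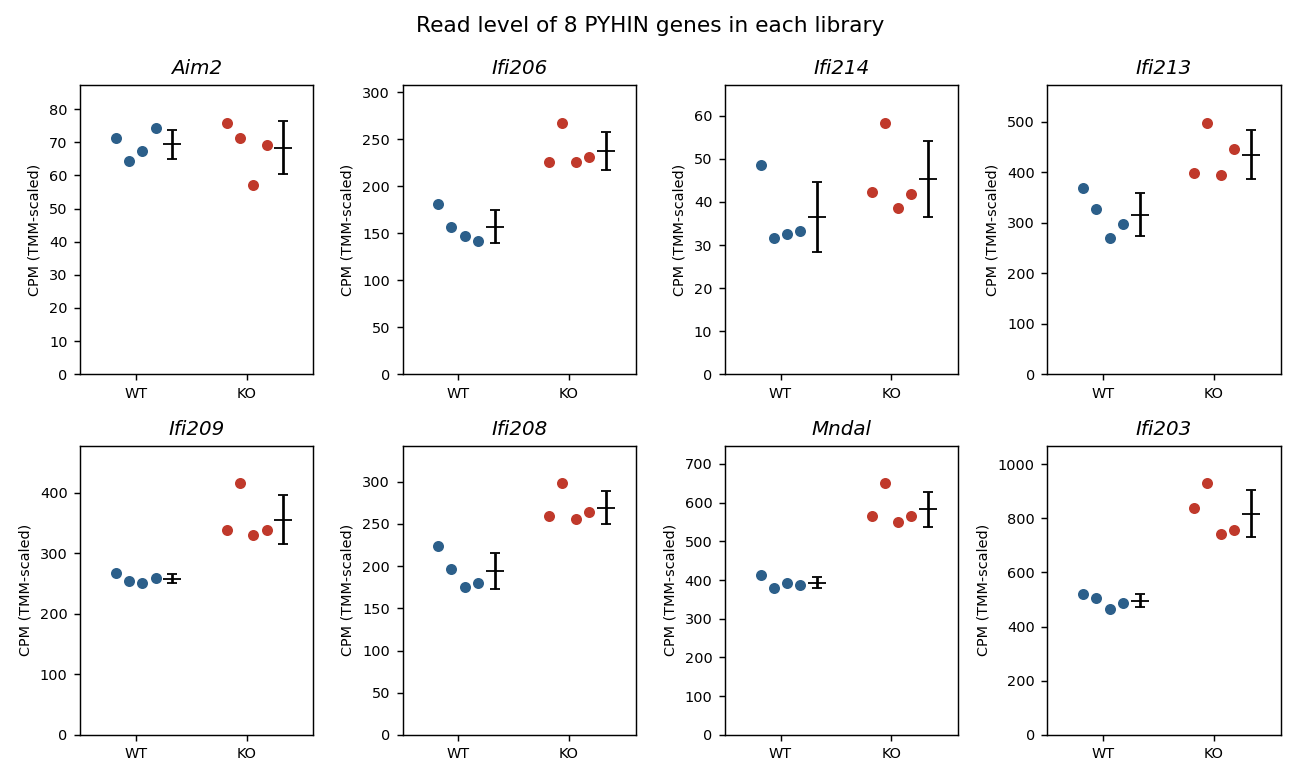
Level of each tested member in CPM, with 1 point per library (blue WT, red KO) and the mean ± SD beside each group (n = 4); every axis starts at 0. KO points sit above all WT points except for Aim2 and Ifi214.

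Ifi203 had the most reads and the largest fold change of the 8 tested members. It encodes a nuclear member of the family. It was read at 839, 929, 744 and 758 CPM in KO and at 521, 505, 466 and 489 in WT. Every KO library was above every WT library, at 1.65-fold (log2 0.72, SE 0.062). Its share of the members' summed reads was 29.1 ± 1.11% in KO and 25.8 ± 0.683% in WT, and the ranges, 27.9 to 30.5% and 24.9 to 26.4%, did not overlap. The gene lies at chr1:173920407-173942672 on the minus strand in mm10, at the distal end of the members.

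Mndal, named for its likeness to the human myeloid nuclear differentiation antigen, was read at 566, 650, 550 and 566 CPM in KO. In WT it was read at 413, 379, 391.8 and 388 CPM. The groups were apart, with 583 ± 45.1 against 393 ± 14.5 CPM and a log2 fold change of 0.57 (SE 0.057). Its share of the members' reads was alike in both groups, 20.8% in KO and 20.5% in WT. The longest Mndal model, chr1:173849126-173942491, overlaps Ifi203 on the same strand, but the exons of the 2 genes share only 37 bases, 1.02% of Mndal's exonic length.

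The 3 members of the first promoter set, Ifi206, Ifi208 and Ifi213, were all higher in KO. Ifi206 was read at 226, 268, 226 and 231 CPM in KO and at 182, 157, 147 and 142 in WT, a log2 fold change of 0.61 (SE 0.072). Ifi208 was read at 260, 298, 256 and 264 CPM in KO and at 224, 196, 176 and 181 in WT, a log2 fold change of 0.48 (SE 0.068). Ifi213 was read at 399, 499, 395 and 446 CPM in KO and at 370, 327, 270 and 297 in WT, a log2 fold change of 0.47 (SE 0.11). In none of the 3 did the groups overlap, but for Ifi213 the lowest KO library and the highest WT library were close. Within WT the order of Ifi208, of Ifi213, of Ifi203 and of the members' sum was the reverse of the order of library totals, from 5227758 reads in Sample_2911_WT to 21998174 in Sample_2914_WT; the part of depth in these values was not tested within WT. With every library thinned to the smallest total, the log2 fold changes were 0.56 for Ifi206, 0.48 for Ifi208 and 0.47 for Ifi213. Thinning keeps each library's proportions on average, so it does not address the order within WT.

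Ifi209 and Ifi214 share nearly the same upstream sequence and differ in level. Ifi209 was read at 338, 415, 330 and 339 CPM in KO and at 268, 255, 251 and 260 in WT. The groups were apart at 1.38-fold (log2 0.46, SE 0.063), and WT varied little (258 ± 7.45 CPM). Ifi214 was read at 42.3, 58.4, 38.7 and 41.9 CPM in KO and at 48.6, 31.5, 32.7 and 33.3 in WT. Its groups overlapped through Sample_2911_WT, and the log2 fold change was 0.34 (95% interval -0.02 to 0.69). Without Sample_2911_WT it was 0.48, and without Sample_2908_KO 0.19. Sample_2911_WT was also the library with the highest myeloid and dendritic sum, 38.8 CPM, of which Lyz2 alone gave 25.3. The part of this in its Ifi214 value was not tested.

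Aim2, the cytosolic DNA sensor of the inflammasome, was the exception. It was read at 76.0, 71.4, 57.1 and 69.2 CPM in KO and at 71.2, 64.5, 67.5 and 74.4 in WT. The groups overlapped throughout, at 68.4 ± 8.07 against 69.4 ± 4.33 CPM. The log2 fold change was -0.02 with a 95% interval of -0.19 to 0.14. Whether Aim2 differs from the other members was not tested. Its share of the members' reads was 2.44% in KO and 3.63% in WT. Aim2 lies first in the row, at chr1:173350879-173466040 on the plus strand, next to Ifi206. The Aim2 window searched for motifs, chr1:173420354-173420603, lies before the RefSeq start and inside this longer gene model.

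Ifi204, whose protein is regarded as a mouse counterpart of human IFI16 and acts in DNA sensing, was barely read. It had 5, 7, 3 and 3 reads in KO and 0, 0, 0 and 5 in WT. On the CPM scale the pooled ratio was 4.73 with a counting interval of 1.69 to 16.3, which covers counting error only. All WT reads came from 1 library, Sample_2915_WT. Ifi204 was in the normalized table, which starts at 10 reads in total, and failed the filter for testing.

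**Figure D2:**
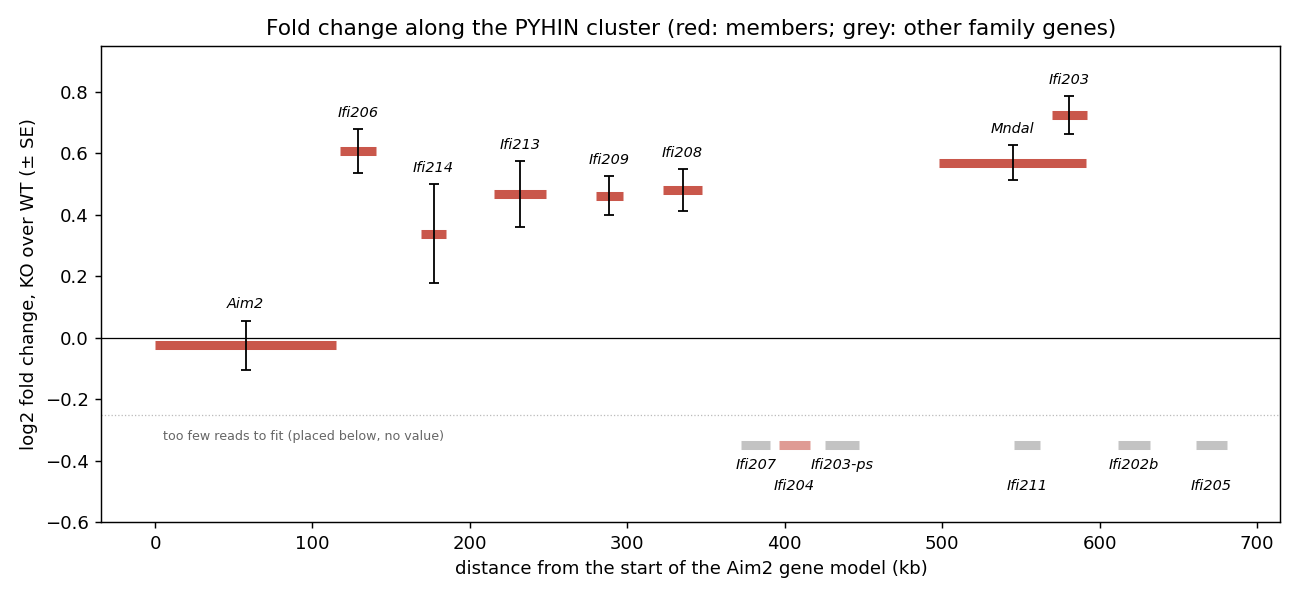
Log2 fold change of KO over WT (± SE, black bars) for each tested family gene, drawn over the extent of its gene model in kb from the start of Aim2; family genes with too few reads to fit are drawn below the dotted line without a value. The 7 tested members from Ifi206 to Ifi203 lie between 0.34 and 0.72, and Aim2 at the left edge lies at -0.02.

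By their gene models the members span 591.79 kb, from Aim2 to Ifi203. The log2 fold changes above 0.5 were at both sides of it, in Ifi206 next to Aim2 and in Mndal and Ifi203 at the distal end, with lower values between them. Within 500 kb of a member's start lie 44 genes outside the family, 24 of them olfactory receptors, and 37 had 0 reads in all libraries. Only Gm18752, a pseudogene between Ifi208 and Ifi207, could be tested (log2 fold change 0.43, SE 0.22, adjusted p = 0.296 by edgeR). Of 75-base windows of the Ifi206 transcripts 6.55% also occur in Gm18752, so reads may be shared. The other neighbours with reads had at most 25.

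Per kilobase of the longest coding transcript, the WT order began with Mndal, at 194 ± 7.16 CPM per kb. Ifi203 (132 ± 6.31) and Ifi213 (115 ± 15.6) followed and overlapped each other. Ifi209 (75.1 ± 2.17), Ifi208 (64.9 ± 7.26) and Ifi206 (51.4 ± 5.80) came next, each overlapping its neighbour. Aim2 (24.5 ± 1.52) and Ifi214 (12.7 ± 2.80) were lowest and apart. The order in KO was the same, from 288 ± 22.2 CPM per kb for Mndal to 15.7 ± 3.08 for Ifi214, with Aim2 (24.1 ± 2.84) now overlapping Ifi214. Divided by the length of all exons of a gene together, Ifi209 took rank 3, Ifi206 rank 4, Ifi213 rank 5 and Ifi208 rank 6 in both groups. The places of these genes therefore depend on the transcript counted, while those of Mndal, Ifi203, Aim2 and Ifi214 did not change.

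Members resemble each other in sequence, and reads in shared stretches could be assigned to either gene or dropped; how the authors' counting treated them is not given in the sources used here. Aim2 shares 0% of its 75-base transcript windows with any other gene and Ifi203 5.71%. The share is 8.07% in Ifi213, 10% in Ifi214, 11.1% in Mndal, 11.8% in Ifi208, 13.2% in Ifi204, 17.6% in Ifi206 and 23.1% in Ifi209. All the shared windows of Ifi209, the member with the largest share, are shared with Ifi214.

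The tested members other than Aim2 varied alike across libraries, also within the groups. Sample_2908_KO was the highest KO library in 7 of the 8 and Sample_2911_WT the highest WT library in 7 of the 8, with Aim2 the exception in both. The correlation of each member's log2 CPM with the mean of the others over the 8 libraries was 0.95 to 0.98 for 6 members, 0.80 for Ifi214 and 0.05 for Aim2 (Pearson r, a description; the points share library and depth). After the group means were removed, r was 0.94 for Ifi214, 0.84 to 0.90 for those 6 and 0.35 for Aim2. Values this high are not particular to the family: against the members' mean, genes outside it reached 0.96 to 0.98. Without Sample_2908_KO, the log2 fold changes were 0.66 for Ifi203, 0.51 for Mndal, 0.55 for Ifi206, 0.43 for Ifi208, 0.38 for Ifi209 and 0.39 for Ifi213. The same library had the highest Satb1 of the KO libraries, 1032 CPM, so the highest PYHIN values and the highest Satb1 value of the group came from one sample.

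**Figure D3:**
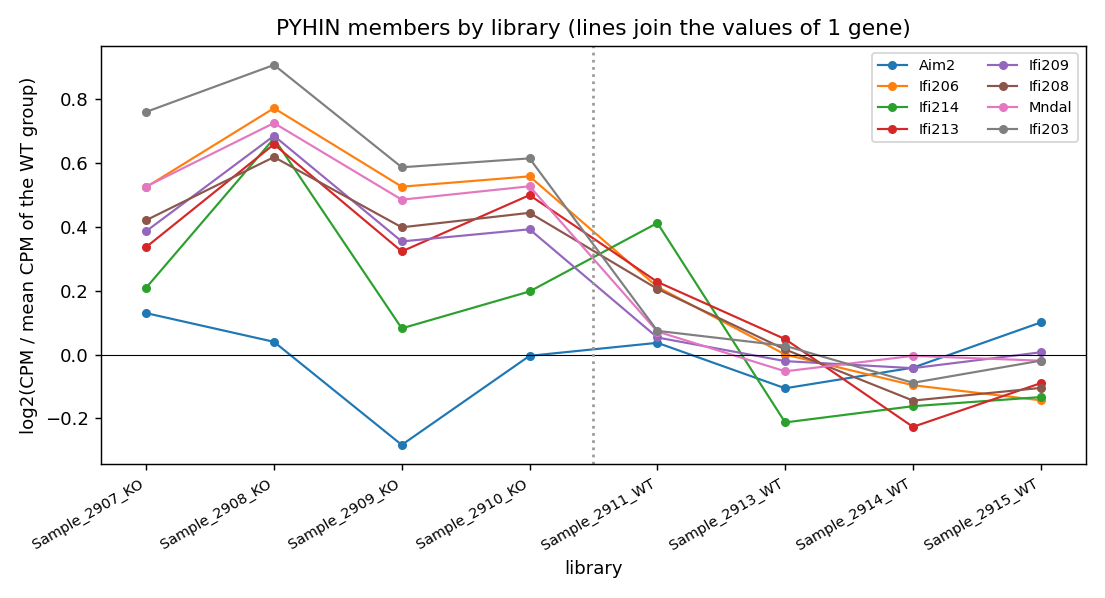
Log2 ratio of each member's CPM to its WT mean, by library, with a line per gene; KO libraries are left of the dotted line. Sample_2908_KO is the peak for 7 of the 8 lines and Sample_2911_WT the highest WT point for the same number, while the Aim2 line does not follow.

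Among genes outside the family, those closest to the mean log2 CPM of the 8 tested members over the 8 libraries were Gm1966, Chd9, Slfn1, Oasl2, Parp14, Serpinb6b, Wls and Oas2 (Pearson r from 0.97 to 0.99, a description). Likeness to members chosen for being higher in KO fixes the direction of these genes, so no test is given for them. Gm1966 was at 591 ± 72.4 CPM in KO and 419 ± 30.3 in WT (log2 0.50). Oas2, which makes the 2-5A signal that activates RNase L, was at 104 ± 12.6 and 45.8 ± 12.4 CPM (log2 1.23). Oasl2, of the same family, was at 40.7 ± 7.02 and 16.2 ± 3.58 CPM (log2 1.39). With group means removed, the closest were Lypla1, Siah3, Eif4e and Cep68 (r from 0.96 to 0.98), and none of these 4 was called between the groups.

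The other family genes in the count table were nearly silent, and none of the 5 reached the filter for testing. Ifi203-ps, a pseudogene that shares 10.8% of its 75-base windows with Ifi203, had 10, 14, 4 and 10 reads in KO and 3, 2, 3 and 2 in WT. In CPM the groups overlapped, with Sample_2909_KO at 0.432 below Sample_2911_WT at 0.579. The pooled ratio was 4.99 (counting interval 2.44 to 11.2), with a two-sided exact permutation p = 0.0571, or 0.229 adjusted over the 4 genes tested this way, where the smallest possible p is 0.0286. Ifi205, a macrophage-expressed member, had 6, 0, 0 and 7 reads in KO and 0 in all WT libraries (exact permutation p = 0.429). With WT set to a floor of 3 reads over the group, the pooled ratio was 5.69. This takes the KO reads as exact, so it is no lower bound. The same 2 libraries, Sample_2907_KO and Sample_2910_KO, held the Il1b reads (7.94, 0.219, 0 and 5.36 CPM in KO against at most 0.18 in WT); Il1b was singled out after its values were seen, and its relation to Ifi205 was not tested. Ifi207 had 6 reads in KO and 7 in WT, Ifi211 3 and 0, and Ifi202b 0 and 0, which allows up to 0.0882 CPM in KO and 0.0671 in WT.

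AIM2 works through inflammasome and pyroptosis genes, and the list of 20 also holds genes of other inflammasomes. Of these 12 were tested, 1 was higher in KO and 0 were lower (8.33%, near the 6.39% of all tested genes; median log2 fold change 0.02). The riser was Casp8, a caspase of cell death pathways, at 228, 237, 230 and 234 CPM in KO and 184, 200, 193 and 190 in WT (log2 0.28, SE 0.053, adjusted p = 0.000836 by edgeR). Pycard, which encodes ASC, was at 57.8 ± 4.92 CPM in KO and 56.7 ± 1.67 in WT (log2 0.04, adjusted p = 0.872). Gsdmd, the pore former of pyroptosis, had a log2 fold change of -0.08, Card6 of -0.07 and Nek7 of 0.00, and none was called. Casp1 had a mean of 10.3 CPM in KO and 8.89 in WT (adjusted p = 0.577). Mefv and Casp12 had 0 reads in every library, and Il18, a cytokine that inflammasomes mature, had 0 reads in KO and 4 in WT.

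Of the cytosolic DNA sensing genes, 24 were tested, and 6 rose in KO and 0 fell. That is 25%, beside 6.39% of all tested genes (3.98% higher, 2.41% lower), with a median log2 fold change of 0.06. This list, like the one above and the one below, was chosen with earlier results of these data known, so the shares are descriptions. Samhd1, an enzyme that degrades deoxynucleotides, was at 1283, 1358, 1201 and 1242 CPM in KO and 731, 720, 640 and 725 in WT (log2 0.85, adjusted p = 4.24e-12 by edgeR). Irf7, a transcription factor of interferon genes, rose by 0.86 (adjusted p = 0.00125), and Zbp1, a sensor of Z-form nucleic acids, by 0.48 (adjusted p = 8.49e-05). Mb21d1, which encodes cGAS, rose by 0.45 (19.7 ± 2.35 against 14.4 ± 0.517 CPM, adjusted p = 0.0265). Tmem173, which encodes STING, rose by 0.20 (211 ± 3.76 against 183 ± 8.47 CPM, adjusted p = 0.0207), and Adar, an RNA-editing enzyme, by 0.19 (adjusted p = 0.0426). The last 3 calls were lost without Sample_2915_WT (adjusted p = 0.0543, 0.12 and 0.206), which left 3 of the 6. Mb21d1 also missed the threshold without Sample_2907_KO (0.141), Sample_2910_KO (0.0508), Sample_2913_WT (0.0706) or Sample_2914_WT (0.072). Adar missed it without Sample_2907_KO (0.0747), Sample_2909_KO (0.103), Sample_2910_KO (0.114), Sample_2913_WT (0.144) or Sample_2914_WT (0.0691). The most abundant others, Ikbke, Dhx9, Lrrfip1 and Nlrc3, had log2 fold changes from -0.03 to 0.09 and were not called.

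Of 15 interferon receptor and ISGF3 genes all were tested, and 5 rose and 0 fell. That is 33.3%, beside 6.39% of all tested genes, with a median log2 fold change of 0.15. Ifngr1, a chain of the interferon gamma receptor, was at 293, 322, 328 and 290 CPM in KO and 127, 101, 98.5 and 124 in WT (log2 1.46, adjusted p = 2.03e-11). Stat2 rose by 0.53 (adjusted p = 1.23e-06) and Irf9 by 0.42 (adjusted p = 7.35e-06), and both encode parts of ISGF3. Usp18, a negative regulator at the type I interferon receptor, rose by 0.93 (adjusted p = 0.00873) and Ifnar2, a chain of that receptor, by 0.41 (adjusted p = 0.000291). Jak1, Irf1 and Ifnar1, the 3 most abundant genes not called, had log2 fold changes from -0.02 to 0.11.

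**Figure D4:**
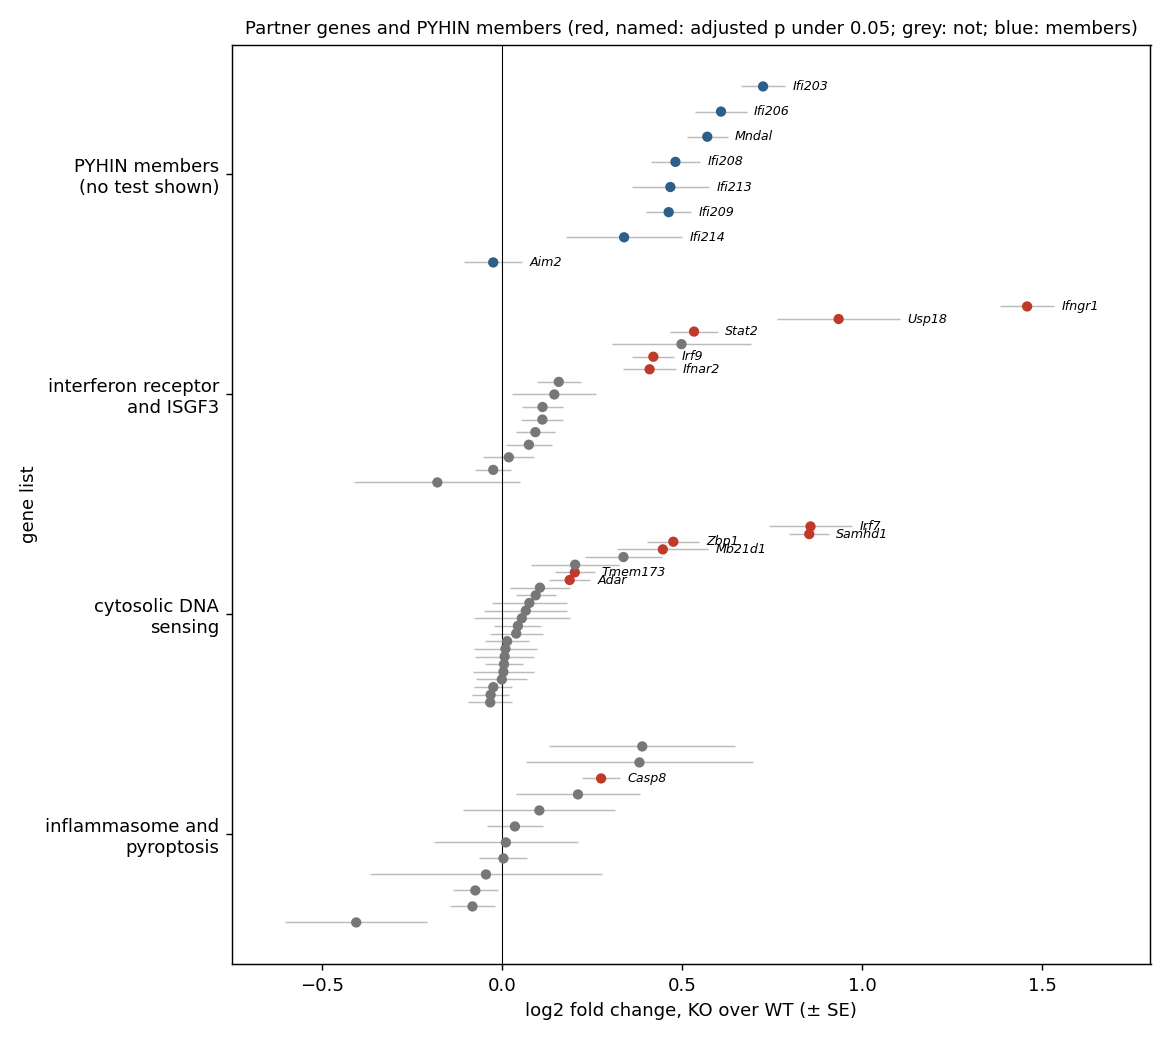
Log2 fold change of KO over WT (± SE) for each tested gene of the 3 partner lists and for the members; red points with names were past an adjusted p under 0.05, grey points were not, and blue points are the members. The called genes lie from 0.19 (Adar) to 1.46 (Ifngr1).

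The promoter letters can be set beside the fold changes of other genes. The exact 10 letters occur upstream of 6 genes outside the family, and 3 of these were tested. Parp11 stood at 115 ± 15.3 CPM in KO and 104 ± 6.94 in WT (log2 0.14, adjusted p = 0.383 by edgeR). Pnrc1 (log2 -0.10, adjusted p = 0.415) and Serpinb6a (log2 -0.06, adjusted p = 0.877) were not called either, so the count was 0 of 3. Outside the family, 275 tested genes have the GAAANNGAAA core, of which 33 (12.0%) were higher in KO and 4 (1.45%) lower, beside 315 (3.78%) and 207 (2.48%) of the 8338 tested genes with an entry and without it. These shares are counts without a test. Among members, Ifi209 and Aim2 lack the core, with log2 fold changes of 0.46 and -0.02. Ifi214 has the core and had 0.34 with overlapping groups. Of the other family genes, Ifi207 holds the exact 10 letters, and Ifi205 and Ifi211 hold the core with other middle bases. Their reads in all libraries were 13 for Ifi207, 13 for Ifi205 and 3 for Ifi211. The relation of the letters to level or fold change was not tested.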

How the data were processed

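Polyadenylated RNA from 8 samples was read as single 75 bp reads with a TruSeq v2 kit, which does not mark strand, per the labels' protocols. The authors deposited raw read counts per gene (53465 IDs) and a table for 16418 genes with at least 10 reads in total, whose signal equals raw counts over a factor fixed for each sample. Per the submitters' processing notes, CASAVA 1.8.2, FastQC, R 3.5.3, DESeq2 1.22.2 and the build mm10 were used; the aligner, counter and annotation were not given in the sources used here. All columns of both tables were matched to samples by title.

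Deposited counts were tested with edgeR 4.0.16 (TMM, filterByExpr, robust quasi-likelihood fit, Benjamini-Hochberg over 11772 genes, threshold 0.05) in R 4.3.3, after the fit was tested on simulated data. Genes with too few reads got exact permutation tests over 70 relabellings. CPM are counts scaled to TMM-adjusted library totals; each value's precision is limited by totals of 5227758 to 21998174 reads, and counting intervals (95%) and floors cover counting error only. Gene models are GENCODE M21; promoters are RefSeq's table, aligned with Biopython 1.88. Alternatives were DESeq2 1.42.0, limma 3.58.1 on the deposited normalized signal (log2 of value + 1), other scalings and filters, and leaving out each library.

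Members and lists were chosen with earlier results of these data known. Named are all members, the other family genes, called genes of each list with up to 4 further genes of highest CPM, tested neighbours, and the genes most like the members by Pearson r; genes with the exact promoter letters were added after the sequences were seen. One gene that this rule names is not reported here.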

Additional observations from a re-analysis of the deposited data

Results flagged for a closer look

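Of 16 groups of 4 libraries tested for a single stray value (8 members, KO and WT), 4 held one, where chance alone gives about 1 in 20. Sample_2908_KO was apart from the other KO libraries for Ifi206 (267.7 CPM), Ifi209 (415.4 CPM) and Mndal (649.6 CPM). Sample_2911_WT was apart from the other WT libraries for Ifi214 (48.64 CPM). The tested members other than Aim2 vary alike across libraries, so the 3 values of Sample_2908_KO are not separate events. Without Sample_2908_KO the log2 fold changes were 0.55 for Ifi206, 0.38 for Ifi209 and 0.51 for Mndal, and without Sample_2911_WT that of Ifi214 was 0.48.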

How the results depend on the processing

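No paired analysis was possible because the sample numbers of the KO and WT groups are all different. Across 15 other settings and 2 more added after seeing the data, the log2 fold change stayed between 0.66 and 0.76 for Ifi203, 0.51 and 0.60 for Mndal, 0.55 and 0.68 for Ifi206, 0.43 and 0.55 for Ifi208, 0.38 and 0.49 for Ifi209, 0.39 and 0.55 for Ifi213 and 0.19 and 0.48 for Ifi214; Aim2 ran from -0.08 to 0.05. The number of members past the threshold, a description since they were chosen on this contrast, was 5 to 7: Ifi213 dropped out without Sample_2910_KO, Sample_2913_WT or Sample_2915_WT and after thinning, and Ifi214 came in without Sample_2911_WT and with no count filter. Leaving out Sample_2911_WT and Sample_2914_WT together gave 481 genes called and 158 lower, and the cause was not tested beyond the smaller group. Other family genes past the threshold numbered 1 with no count filter (Ifi205) and 0 to 1 when leaving out 1 library (Ifi203-ps, without Sample_2911_WT or Sample_2913_WT). Cytosolic DNA sensing genes past the threshold ranged from 3 (without Sample_2915_WT) to 7 over the leave-one-out fits. Adar lost its call in 11 of 17 settings, Mb21d1 in 6 and Tmem173 in 3. Depth limits Ifi204, Ifi205, Ifi207, Ifi211 and Ifi203-ps, which had 3 to 48 reads in all.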
